A study of Mus musculus with 24 samples.

Results

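The T cell receptor complex and the first steps of its signalling were followed through 9 genes in mouse splenic CD4+ T cells. These were the 4 signalling chains of the CD3 complex (Cd3d, Cd3e, Cd3g and Cd247), the costimulatory receptor Cd28, the tyrosine kinases Lck and Zap70, and the adaptor proteins Lat and Lcp2. The rule names them for their role and uses no measured value, and each matched 1 of the 54446 gene identifiers in the count table.

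The antigen-binding chains of the receptor have almost no signalling tail of their own, and the CD3 chains carry the signal through immunoreceptor tyrosine-based activation motifs (ITAMs). Lck, which is held at the co-receptor CD4, phosphorylates the ITAM tyrosines. Zap70 docks on them and in turn phosphorylates the adaptors Lat and Lcp2, on which the complexes that open calcium, Ras and NF-kB signalling assemble. Cd28 supplies the costimulatory signal that a T cell needs beside the receptor, and antibodies to CD3 and CD28 trigger both receptors without antigen.

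The cells came from 6 mice of the C57BL6 background, 3 of which were labelled wild type (WT, mice 1, 3 and 4) and 3 deficient in the cytosolic DNA sensor AIM2 (Aim2-/-, mice 1, 2 and 4). Ages are not given in the sources used here. For each mouse there was a library of unstimulated cells (0 h) and a library after 3, 6 and 24 h of culture with anti-CD3/CD28, which makes 8 groups of 3 libraries. The methods of the study describe bulk CD4+ T cells enriched by removal of other cells with antibodies, so a rest of other cells can be present, and in such samples fewer cells of a type and less RNA per cell cannot be told apart.

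Every library held between 19715161 and 21627018 counts, and the 9 genes had at least 2465 counts in each (Cd28) and up to 21103 (Lcp2), so counting error was small for all of them and all 9 were tested. Levels are given as CPM (counts per 1000000 counts of the library), on library sizes scaled by TMM, a method that corrects for a few dominant genes. The labelled cell type was checked on its markers: Cd4, Trac, Trbc1 and Trbc2 together reached between 2159 and 3219 CPM per library, while the CD8 T cell markers Cd8a and Cd8b1 reached 7.74 to 15.6 CPM. The targeted gene went against 1 label. Resting Aim2 was 75.0 CPM in WT 3 and 67.5 CPM in WT 4, while the Aim2-/- mice had 15.7, 20.1 and 19.0 CPM. The mouse labelled WT 1 had 21.5 CPM, and its Aim2 level was close to that of the Aim2-/- mice at 3, 6 and 24 h as well. Differences between the genotypes are therefore also given without that mouse. Markers of other cells were also higher in Aim2-/- libraries. At 0 h the 6 myeloid markers summed to 141 to 394 CPM in Aim2-/- mice against 65.0 to 87.1 CPM in WT mice, the 4 mast cell and basophil markers to 51.3 to 96.5 against 6.74 to 9.61 CPM, the 4 B cell markers to 9.90 to 32.2 against 3.04 to 4.10 CPM, and the 4 platelet markers to 28.7 to 47.7 against 11.4 to 20.6 CPM. The 4 NK cell markers summed to 91.6 to 112 CPM against 32.0 to 53.0 CPM, and the 5 erythroid markers overlapped, with 20.6 to 332 CPM against 7.40 to 71.6 CPM. The 4 gamma delta T cell markers overlapped too, at 23.8 to 43.4 against 31.4 to 40.3 CPM.

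The ITAMs are what makes the CD3 chains signal, and they differ in number between the chains. The coding sequences of the principal GENCODE M21 transcripts (GRCm38) were searched for codons of a tyrosine, any 2 residues and a leucine or isoleucine, followed after 6 to 8 residues by the same pattern. The chains held 6 such motifs in all, 1 each in Cd3d, Cd3e and Cd3g and 3 in Cd247, the zeta chain. They are printed 5′ to 3′ on the coding strand with the codons of the paired tyrosines in capitals.
Cd3d ITAM: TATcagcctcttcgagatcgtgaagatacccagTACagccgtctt
Cd3e ITAM: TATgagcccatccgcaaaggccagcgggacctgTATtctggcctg
Cd3g ITAM: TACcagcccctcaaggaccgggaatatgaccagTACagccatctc
Cd247 ITAM 1: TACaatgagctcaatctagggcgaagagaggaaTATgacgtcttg
Cd247 ITAM 2: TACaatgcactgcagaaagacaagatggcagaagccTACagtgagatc
Cd247 ITAM 3: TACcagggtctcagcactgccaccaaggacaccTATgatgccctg
All 6 are interrupted by an intron in the genome. The Cd3d motif lies at chr9:44986095-44986311 (+), that of Cd3e at chr9:44999549-45000440 (-) and that of Cd3g at chr9:44970735-44971268 (-). The Cd247 motifs lie at chr1:165856451-165857454, chr1:165858473-165859260 and chr1:165859819-165861042 (+). Cd28 holds no ITAM but 1 short tyrosine motif that docks the lipid kinase PI3K, within a single exon at chr1:60769693-60769704 (+).
Cd28 docking motif: TACatgaacatg

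Levels between genes were set per kb of merged exon length, which counts all annotated exons and can exceed the length of the transcripts present. This length ran from 1.81 kb for Cd3d to 6.12 kb for Cd28, and the order of the genes depends on it. By this measure Lck was highest of the 9 in resting WT cells, at 294 ± 22.8 CPM per kb (SD, n = 3). Lat (228 ± 32.8) and Cd3d (226 ± 15.9) followed at a level that their libraries did not separate. Cd3g (135 ± 3.91), Cd3e (131 ± 7.04), Cd247 (112 ± 15.5) and Zap70 (103 ± 2.42 CPM per kb) formed a lower run in which each overlapped the next. Cd28 (87.7 ± 12.0) and Lcp2 (68.1 ± 6.20 CPM per kb) stood lowest, each below the gene before it in all 3 libraries. Resting Aim2-/- cells had Lck (277 ± 18.2) first, then Cd3d (229 ± 17.8) and Lat (209.6 ± 20.9 CPM per kb), which overlapped, and Lcp2 (68.6 ± 1.88) and Cd28 (68.5 ± 5.17 CPM per kb) last, which overlapped as well. After 3 h of stimulation Lcp2 stood between Lat and Cd3d in WT, at 202 ± 21.1 CPM per kb, and overlapped both. Cd28 was last at 3, 6 and 24 h in both genotypes, with 33.7 ± 3.85 CPM per kb in WT and 25.7 ± 5.86 CPM per kb in Aim2-/- cells at 24 h (SD, n = 3), below every library of the gene before it.

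**Figure D1:**
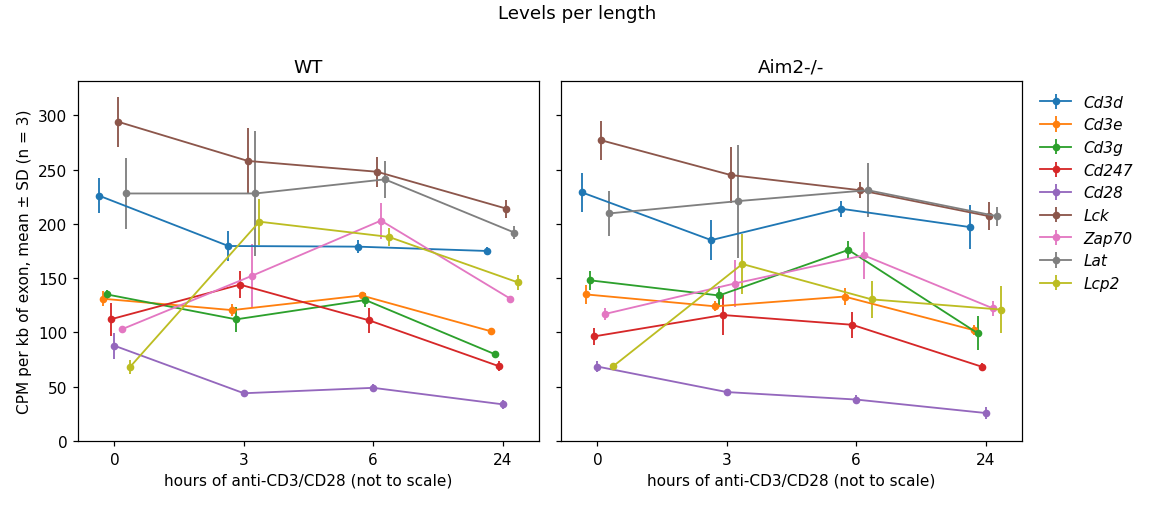
Mean level of each of the 9 genes in CPM per kb of exon (vertical axis) at 0, 3, 6 and 24 h (horizontal axis, evenly spaced), WT on the left and Aim2-/- on the right, with bars of 1 SD over 3 mice. Lck is highest at 0 h in both genotypes and Cd28 falls to 33.7 CPM per kb in WT and 25.7 in Aim2-/- cells at 24 h, while Lcp2 climbs from 68.1 to 202 CPM per kb in WT cells within 3 h.

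Stimulation moved the 9 genes in different directions. Lcp2 rose and Cd28 fell at each time in both genotypes, Zap70 rose for some hours, the CD3 chains and Lck were lower at 24 h, and Lat passed the test against 0 h at no time. A gene is described as changed when edgeR's quasi-likelihood test gave a Benjamini-Hochberg adjusted p under 0.05 over all 15325 genes tested. In WT cells 3 of the 9 rose and 3 fell at 3 h, where 16.2% of all tested genes rose and 16.4% fell. For 6 h these counts were 2 and 3, against 26.4% and 24.8% of all genes, and at 24 h 2 rose and 6 fell, against 36.6% and 34.8%. Of the 9 in Aim2-/- cells 1 rose and 2 fell at 3 h (16.1% and 14.6% of all genes), 3 rose and 2 fell at 6 h (28.5% and 22.7%), and 1 rose and 6 fell at 24 h (36.8% and 33.5%). The median log2 change of the 9 at 24 h was -0.37 in WT and -0.41 in Aim2-/- cells, beside -0.01 and 0.03 over all tested genes. Of all genes called at 3 h, 49.6% rose in WT and 52.4% in Aim2-/- cells, and with library totals as the only scaling these shares were 64.9% and 69.3%. The comparisons at 3, 6 and 24 h share the same 3 libraries of 0 h within a genotype. Without mouse WT 3 the WT count at 3 h was 2 and without mouse WT 4 it was 3. Of all genes, these fits called 2936 and 3512, against 4992 with all mice. The Aim2-/- count at 3 h was 5 with each mouse as a block, where 6307 of all tested genes were called, against 4698 without it. At 6 h the Aim2-/- count was 3 without any 1 of mice Aim2-/- 1, 2 and 4. Of all genes, these fits called 7072, 6976 and 6310, against 7840 with all mice.

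**Figure D2:**
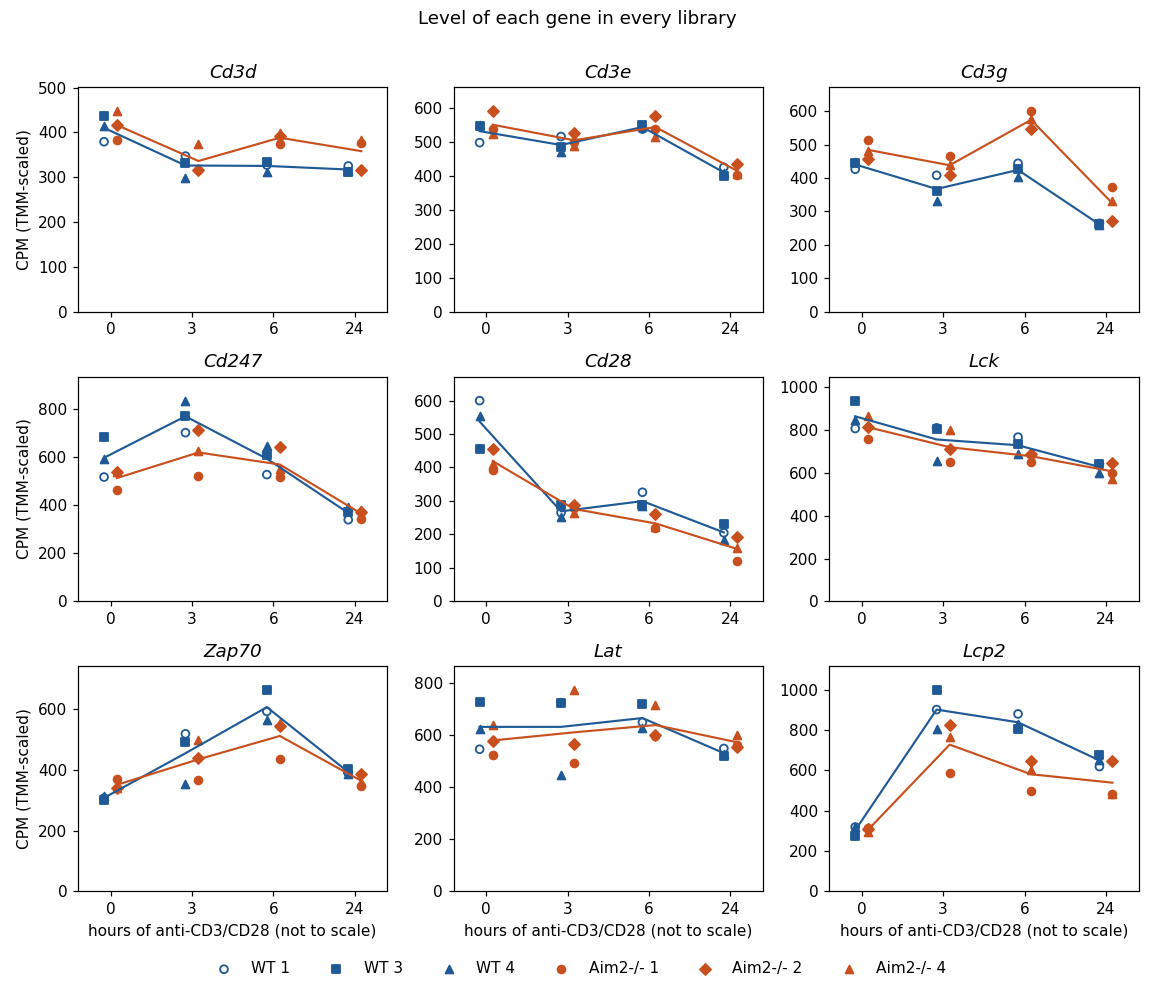
CPM of each of the 9 genes (vertical axes, from 0) in all 24 libraries by hours of stimulation (horizontal axes, evenly spaced). Points are single mice, blue for WT and orange for Aim2-/-, open circles are the mouse labelled WT 1, and lines join group means. Lcp2 lies at 272 to 320.1 CPM in all 6 mice at 0 h and at 484 CPM or more in every stimulated library, and every stimulated Cd28 library lies below every Cd28 library of 0 h.

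Among the receptor chains, Cd3d (delta chain, chr9:44981786-44987339, +) and Cd3g (gamma chain, chr9:44969572-44980431, -) are neighbours on chromosome 9 that are transcribed away from each other, with 1355 bp between their start sites. Cd3e (epsilon chain, chr9:44998740-45009627, -) lies next to them. The 250 bases upstream of the RefSeq start sites of Cd3d and Cd3g (GRCm38.p6) are given since these neighbours followed different courses, with each GGAAA, the core that NFAT factors recognise, in capitals (TTTCC where it is on the other strand).
Cd3d upstream, chr9:44981536-44981785 (+): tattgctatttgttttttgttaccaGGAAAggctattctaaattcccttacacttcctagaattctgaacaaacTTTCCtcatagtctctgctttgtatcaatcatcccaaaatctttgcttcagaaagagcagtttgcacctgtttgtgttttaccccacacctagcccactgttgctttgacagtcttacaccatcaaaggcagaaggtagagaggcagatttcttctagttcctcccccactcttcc
Cd3g upstream, chr9:44980432-44980681 (-): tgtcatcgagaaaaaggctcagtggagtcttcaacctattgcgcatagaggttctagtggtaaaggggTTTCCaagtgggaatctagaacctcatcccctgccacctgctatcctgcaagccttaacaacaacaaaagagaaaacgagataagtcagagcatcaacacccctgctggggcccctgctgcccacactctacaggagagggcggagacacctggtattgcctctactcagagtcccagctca
Promoters were found in RefSeq for 8 of the 9 genes (11 windows). GGAAA stood on either strand in 7 of the 11 windows, at 7 genes, and in 55.6% of all 32851 promoter windows of that length. The AP-1 motif TGANTCA was in none of the 11 windows (6.75% of all promoters), nor was TATAAA, the letters of the TATA box (12.4%). TGTGGT, bound by RUNX factors, was found in 2 of the 11 windows, at Lck and Zap70 (14% of all promoters). CCGGAA, bound by ETS factors, was found in 1 window, at Zap70 (12%). The E-box CANNTG was found in 10 of the 11 windows, at each of the 8 genes (66.2% of all promoters). A loose form of the NF-kB motif, GGG and CC with any 5 bases between them, was in 4 windows, at Lck and Zap70 (45.8%). All motifs were searched on both strands, the letters of several can overlap, and a match is a description of the letters only.

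Cd3g moved little within 6 h and was lowest at 24 h. In WT mice 1, 3 and 4 it stood at 426, 446 and 449 CPM at 0 h, at 408, 360.2 and 332 CPM at 3 h, at 444, 427 and 402 CPM at 6 h and at 264, 262 and 258 CPM at 24 h. Its level in Aim2-/- mice 1, 2 and 4 was 514, 458 and 480.3 CPM at 0 h, 465, 410.3 and 438 CPM at 3 h, 601, 546 and 575 CPM at 6 h and 373, 270.0 and 329.7 CPM at 24 h. In both genotypes all libraries of 24 h lay below all libraries of 0 h. The fall at 24 h was -0.75 (SE 0.10, adjusted p 6.2e-07) in WT and -0.58 (SE 0.10, adjusted p 2.2e-05) in Aim2-/- cells on the log2 scale, called in all 11 alternative fits of each. Before that, Cd3g fell by 0.26 at 3 h in WT (adjusted p 0.043) and rose by 0.25 at 6 h in Aim2-/- cells (adjusted p 0.0406). Neither early change held in all alternatives. That at 3 h in WT was called in 6 of 11 and that at 6 h in Aim2-/- cells in 3 of 11. With each mouse as a block both were called (-0.27, adjusted p 0.00607, and 0.25, adjusted p 0.00713). The fall at 3 h was not called without mouse WT 3 (-0.26, adjusted p 0.188), without mouse WT 4 (-0.21, 0.243), with library totals as the only scaling (-0.15, 0.327), without the filter on low counts (0.133) or with only the compared libraries in the fit (0.0826). The rise at 6 h was not called without any 1 of mice Aim2-/- 1 (0.25, adjusted p 0.0557), 2 (0.24, 0.0514) and 4 (0.24, 0.169), nor with RLE factors (0.106), DESeq2 (0.0827) or any of the 3 other filters or library choices, with adjusted p up to 0.246.

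Cd3d fell early and then kept its lower level in WT cells. Its WT libraries lay at 379 to 436 CPM at 0 h and at 299 to 347 CPM at 3 h, 312 to 334 CPM at 6 h and 312 to 325 CPM at 24 h, with no overlap between 0 h and any later time. The changes were -0.33 (adjusted p 0.00692), -0.34 (0.0035) and -0.37 (9.6e-04) on the log2 scale, and those at 6 and 24 h were called in all 11 alternatives. Aim2-/- libraries went from 383 to 448 CPM at 0 h to 317 to 374, 373 to 398 and 315 to 382 CPM, that is by -0.31 (adjusted p 0.0128), -0.10 (0.37) and -0.21 (0.0393). At 3 h the fall was not called without mouse WT 3 (-0.32, adjusted p 0.0903), without mouse WT 4 (-0.29, 0.0989) or with library totals (-0.22, 0.0673) in WT. The Aim2-/- fall was not called without mouse Aim2-/- 2 (-0.26, 0.0808), with library totals (-0.19, 0.117), without the filter (0.0902) or with the compared libraries alone (0.0821). The fall at 24 h in Aim2-/- cells was not called without mouse Aim2-/- 2 (-0.13, adjusted p 0.283) or Aim2-/- 4 (-0.21, 0.0914), nor with library totals (0.0801), no filter (0.0694) or the compared libraries alone (0.0886).

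Cd3e changed only at 24 h among the 3 times tested. It moved from 499 to 549.8 CPM at 0 h to 399.7 to 426 CPM at 24 h in WT (-0.37, SE 0.07, adjusted p 9.0e-05) and in Aim2-/- mice from 524 to 593 CPM at 0 h to 403 to 437 CPM at 24 h (-0.41, SE 0.07, adjusted p 3.2e-05), without overlap. Both falls were called in all 11 alternatives. At 3 and 6 h its log2 changes lay between -0.13 and 0.03 with adjusted p of 0.201 or more, and at those times the 95% intervals reached from -0.27 to 0.17.

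Cd247 (zeta chain, chr1:165788681-165877277, +) rose at 3 h in WT before it fell. In WT mice 1, 3 and 4 it stood at 516, 680.3 and 592 CPM at 0 h, at 700.2, 769.6 and 833 CPM at 3 h, at 526, 606 and 643 CPM at 6 h and at 339, 373 and 390.4 CPM at 24 h. In Aim2-/- mice 1, 2 and 4 it stood at 464, 535 and 538 CPM at 0 h, at 519, 711 and 624 CPM at 3 h, at 515, 641 and 548 CPM at 6 h and at 343, 372 and 379 CPM at 24 h. Each of the 6 mice was higher at 3 h than at 0 h, and the libraries of 24 h lay below all others. The fall at 24 h was -0.70 (SE 0.12, adjusted p 3.3e-05) in WT and -0.49 (SE 0.12, adjusted p 0.0013) in Aim2-/- cells on the log2 scale, called in all 11 alternatives. The rise at 3 h was 0.37 (adjusted p 0.0258) in WT and 0.27 (adjusted p 0.103) in Aim2-/- cells. Leaving out any WT mouse took the WT rise past the threshold (0.33, adjusted p 0.0991 without the mouse labelled WT 1, 0.46 and 0.0722 without WT 3, 0.27 and 0.289 without WT 4). The Aim2-/- rise was called with each mouse as a block (0.26, adjusted p 0.00865) and with library totals (0.38, 0.00837). An exon of Cd247 overlaps Pou2f1, a gene on the other strand that reached 27.5 to 98.9 CPM. Reads of the overlap cannot be told apart if the counting ignored strand, and its part in the Cd247 values was not tested.

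Summed over the 4 CD3 chains, WT libraries held 1979 ± 147 CPM at 0 h, 1952 ± 19.0 CPM at 3 h, 1886 ± 43.7 CPM at 6 h and 1357 ± 11.3 CPM at 24 h, and Aim2-/- libraries 1965 ± 55.2, 1898 ± 84.0, 2074 ± 71.7 and 1463 ± 59.6 CPM (SD, n = 3). The sum was thus lower at 24 h than in any library of an earlier time. The summed level of Cd4, Trac, Trbc1 and Trbc2, the markers of the cells themselves, moved as well. WT mice had 2839 to 2968 CPM at 0 h and 2159 to 2177 CPM at 24 h, and Aim2-/- mice had 2858 to 3068 CPM and 2244 to 2439 CPM at these times. Of these 4 markers 3 fell in WT (Cd4, Trac and Trbc1) and 2 fell in Aim2-/- cells (Cd4 and Trac) at 24 h. Whether a smaller share of T cell RNA took part in the fall of the CD3 chains was not tested.

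Cd28 (chr1:60716800-60773359, +) showed the largest fall of the 9 genes at every time in both genotypes. In WT mice 1, 3 and 4 it stood at 599.6, 456 and 555 CPM at 0 h, at 265, 289 and 253 CPM at 3 h, at 326, 288 and 285 CPM at 6 h and at 205, 230.4 and 183 CPM at 24 h. In Aim2-/- mice 1, 2 and 4 it stood at 393, 454 and 411 CPM, then at 278, 287 and 263 CPM, 219, 260.0 and 221 CPM, and 121, 192 and 159 CPM. No stimulated library reached any library of 0 h. In WT the log2 changes were -1.0 (SE 0.14, adjusted p 7.9e-06), -0.84 (SE 0.13, adjusted p 2.1e-05) and -1.38 (SE 0.14, adjusted p 1.0e-08) at 3, 6 and 24 h, the last a 2.60-fold lower level. Those of Aim2-/- cells were -0.60 (SE 0.13, adjusted p 0.00165), -0.85 (SE 0.13, adjusted p 2.3e-05) and -1.41 (SE 0.14, adjusted p 8.5e-09), the last 2.67-fold lower. All 6 falls were called in all 11 alternatives.

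Of the kinases, Lck (chr4:129548344-129573641, -), which phosphorylates the ITAMs, fell slowly and by little. WT libraries ranged from 806 to 936 CPM at 0 h, 653 to 809 CPM at 3 h, 685 to 766 CPM at 6 h and 599 to 641 CPM at 24 h, and Aim2-/- libraries from 759 to 866, 648 to 798, 652 to 691 and 571 to 647 CPM. The groups of 0 h and 3 h overlapped, those of 0 h and 6 h did not, and those of 24 h lay below 0 h in both genotypes. The log2 changes in WT were -0.19 (adjusted p 0.137), -0.24 (0.0374) and -0.46 (2.1e-04), and in Aim2-/- cells -0.18 (0.18), -0.26 (0.0263) and -0.42 (5.3e-04). The falls at 24 h were called in all 11 alternatives and those at 6 h in 6 of 11. At 6 h the WT call was lost without mouse WT 3 (-0.23, adjusted p 0.179) and without mouse WT 4 (-0.24, 0.117), and the Aim2-/- call without mouse 1 (-0.28, 0.0517), 2 (-0.28, 0.0795) or 4 (-0.23, 0.128). Scaling by library totals and no filter on low counts ended the call in both genotypes, with adjusted p from 0.0561 to 0.196, as did fitting the compared libraries alone in WT (0.0764).

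Zap70 (chr1:36761798-36782818, +), the kinase that docks on the phosphorylated ITAMs, rose to a peak at 6 h. In WT mice 1, 3 and 4 it stood at 307, 301 and 315 CPM at 0 h, at 519, 493 and 353 CPM at 3 h, at 593, 662 and 566 CPM at 6 h and at 389, 403 and 387 CPM at 24 h. In Aim2-/- mice 1, 2 and 4 it stood at 371, 341 and 341 CPM at 0 h, at 367, 439 and 498 CPM at 3 h, at 437, 545 and 555 CPM at 6 h and at 347, 387 and 359 CPM at 24 h. All WT libraries were above the WT libraries of 0 h at each later time, whereas mouse Aim2-/- 1 was not above its own level of 0 h at 3 or 24 h. In WT the log2 changes were 0.56 (SE 0.13, adjusted p 0.00144), 0.98 (SE 0.13, adjusted p 1.3e-06) and 0.35 (SE 0.13, adjusted p 0.0163), and in Aim2-/- cells 0.31 (SE 0.13, adjusted p 0.0682), 0.54 (SE 0.13, adjusted p 0.00104) and 0.05 (SE 0.13, adjusted p 0.713). The rises at 6 h were called in all 11 alternatives. At 3 h the WT rise was not called without mouse WT 3 (0.47, adjusted p 0.0592). The Aim2-/- rise at 3 h was called without mouse Aim2-/- 1 (0.46, adjusted p 0.0184), with each mouse as a block (0.30, 0.032), with library totals (0.42, 0.00994) and with a minimum mean of 1 CPM (0.32, 0.0473). The WT rise at 24 h was not called without the mouse labelled WT 1 (0.36, adjusted p 0.0591) or mouse WT 3 (0.26, 0.185).

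Of the adaptors, Lat (chr7:126363824-126369570, -), the membrane scaffold that Zap70 phosphorylates, did not pass the test at 3, 6 or 24 h in either genotype. With the compared libraries alone in the fit, its fall at 24 h in WT was called (-0.28, adjusted p 0.0309). Its log2 changes lay between -0.25 (WT, 24 h, adjusted p 0.177) and 0.14 (Aim2-/-, 6 h, adjusted p 0.502), with an SE of 0.16 and 95% intervals that reached from -0.57 to 0.46 over the 6 comparisons. The libraries of 3 h were spread most, with 725, 724 and 446 CPM in WT mice 1, 3 and 4 and 495, 565 and 772 CPM in Aim2-/- mice 1, 2 and 4. The same WT 4 library of 3 h was also the lowest of its group for Cd3d, Cd3g, Cd3e, Cd28, Lck, Zap70 and Lcp2, and the highest for Cd247. Its sum of the 4 CD4 T cell markers, 2233 CPM, was also the lowest of the 12 libraries of 0 and 3 h.

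Lcp2 (chr11:34046920-34092295, +), the cytosolic adaptor also known as SLP-76 that joins Lat to calcium signalling, showed the largest rise of the 9 at 3, 6 and 24 h in both genotypes. Its upstream 250 bases from RefSeq (GRCm38.p6) are given since its rise was the largest, with the single GGAAA they hold in capitals.
Lcp2 upstream, chr11:34046678-34046927 (+): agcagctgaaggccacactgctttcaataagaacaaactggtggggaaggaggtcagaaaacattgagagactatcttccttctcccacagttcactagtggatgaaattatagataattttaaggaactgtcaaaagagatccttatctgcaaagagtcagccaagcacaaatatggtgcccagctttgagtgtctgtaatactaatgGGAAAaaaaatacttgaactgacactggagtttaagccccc
In WT mice 1, 3 and 4 Lcp2 stood at 319, 272 and 320.1 CPM at 0 h, at 902, 997 and 808 CPM at 3 h, at 880.5, 807 and 830.4 CPM at 6 h and at 619, 678 and 653 CPM at 24 h. In Aim2-/- mice 1, 2 and 4 it stood at 312, 309 and 296 CPM at 0 h, at 589, 827 and 767 CPM at 3 h, at 497, 647 and 599.6 CPM at 6 h and at 484, 649 and 484 CPM at 24 h. Resting levels of the genotypes overlapped, and no stimulated library overlapped a resting one. The log2 rises in WT were 1.57 (SE 0.13, adjusted p 2.2e-08), 1.47 (SE 0.13, adjusted p 1.1e-08) and 1.10 (SE 0.13, adjusted p 1.8e-07), or 2.97-, 2.77- and 2.14-fold. The rises in Aim2-/- cells were 1.25 (SE 0.13, adjusted p 5.8e-07), 0.93 (SE 0.13, adjusted p 5.5e-06) and 0.82 (SE 0.13, adjusted p 1.1e-05), or 2.38-, 1.90- and 1.76-fold. All 6 rises were called in all 11 alternatives.

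**Figure D3:**
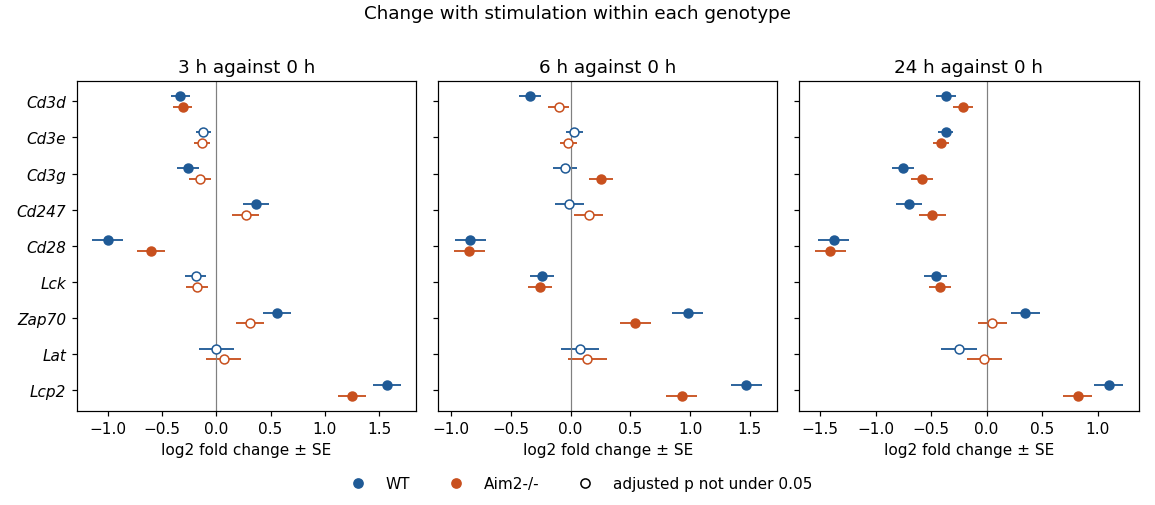
Log2 fold change of each of the 9 genes (rows) against 0 h after 3, 6 and 24 h, blue for WT and orange for Aim2-/-, with bars of 1 SE, filled where the adjusted p was under 0.05. Lcp2 lies between 0.82 and 1.57 and Cd28 between -0.60 and -1.41 at all times, and Zap70 is highest at 6 h with 0.98 in WT and 0.54 in Aim2-/- cells.

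Successive times place these changes. From 3 to 6 h, WT cells had 1 rise and 1 fall among the 9, against 14.2% and 11.5% of all genes. Zap70 rose by 0.42 (adjusted p 0.0179) and Cd247 fell by 0.38 (adjusted p 0.0279). Aim2-/- cells had 1 rise and no fall between those times, against 13.4% and 9.89% of all genes, and the rise was that of Cd3g by 0.39 (adjusted p 0.00641). From 6 to 24 h no gene of the 9 rose and 6 fell in WT, against 29.6% and 28.0% of all genes, and none rose and 5 fell in Aim2-/- cells, against 27.4% and 27.0%. In both genotypes these were Cd3e, Cd3g, Cd247, Cd28 and Zap70, and in WT Lcp2 as well. Cd3g fell by 0.70 (adjusted p 3.8e-06) in WT and by 0.82 (adjusted p 6.4e-07) in Aim2-/- cells, and Cd247 by 0.69 and 0.64. The calls between 3 and 6 h were lost without some single mice. The WT count was 0 without mouse WT 3 or WT 4 and 1 without the mouse labelled WT 1. Of all genes, these fits called 1921, 1538 and 2916, against 3945 with all mice. The Aim2-/- count was 0 without mouse Aim2-/- 4, where 2213 of all genes were called, against 3571 with all mice. The estimates kept their sign: Zap70 stood at 0.39 and 0.31 without WT 3 and WT 4, and Cd247 at -0.42 and -0.37. Cd3g in Aim2-/- cells stood at 0.39 without Aim2-/- 4. Leaving out a mouse also leaves fewer mice in its group. With each mouse as a block Cd3g rose in WT too (0.21, adjusted p 0.0305), and the Aim2-/- count was 3, with Cd3d (0.21, adjusted p 0.0402) and Lcp2 (-0.32, adjusted p 0.0175) added. That fit called 5537 of all tested genes in WT and 5438 in Aim2-/- cells, against 3945 and 3571 without the block. The fall of Lcp2 from 6 to 24 h in WT (-0.37, adjusted p 0.0196) was not called without the mouse labelled WT 1 (-0.30, adjusted p 0.163) or mouse WT 4 (-0.40, 0.0781). With the block, Lck (-0.21, adjusted p 0.0229) and Lat (-0.32, adjusted p 0.0264) fell from 6 to 24 h in WT as well.

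Between the genotypes, few differences of the 9 genes passed the test. With all 6 mice edgeR called none of the 9 at 0 h (5.23% of all genes were called), none at 3 h (0.294%), 2 at 6 h (15.8%) and none at 24 h (0.666%). At an unadjusted p under 0.05 there were 1, 3, 4 and 2 of the 9 at these times, beside 23.8%, 15.3%, 34.1% and 20.5% of all genes. DESeq2 called 0, 0, 4 and 1 of the 9, beside 10.8%, 2.32%, 22.7% and 5.95% of all genes. Limma-voom called 0, 0, 2 and 0, beside 5.23%, 0.411%, 16.3% and 0.0326%. The shares over all genes depended on single mice: the share called at 3 h was 0.00638% without mouse WT 3 and 7.31% without mouse Aim2-/- 2, that at 6 h 0.607% without mouse WT 4 and 25.7% without Aim2-/- 2, and that at 24 h 0% without WT 3 and 17.3% without Aim2-/- 2. The share at 0 h ranged from 0.191% without WT 3 to 13.7% without Aim2-/- 2. The genes called at 6 h were Cd3g, higher in Aim2-/- cells by 0.44 (SE 0.10, adjusted p 0.0112), and Lcp2, lower, with a log2 difference of -0.53 (SE 0.13, adjusted p 0.0157). Without the mouse labelled WT 1 both were still called, Cd3g at 0.47 (adjusted p 0.0194) and Lcp2 at -0.50 (adjusted p 0.0491), and none of the 9 was called at 0, 3 or 24 h, where 5.77%, 2.71% and 1.05% of all genes were, or on mouse sums. At 6 h that share was 11.4%.

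Cd3g libraries of Aim2-/- mice lay above all WT libraries at each of the 4 times, by a narrow margin at 3 h (410.3 CPM in the lowest Aim2-/- library, 408 CPM in the highest WT library) and a wide one at 6 h (546 against 444 CPM). The 4 times come from the same 6 mice and are not independent. The log2 differences of Cd3g were 0.14 (adjusted p 0.404), 0.26 (0.23), 0.44 and 0.31 (0.105) at 0, 3, 6 and 24 h, and 0.11, 0.34, 0.47 and 0.32 without the mouse labelled WT 1. Lcp2 lay apart only at 6 h, where the highest Aim2-/- library had 647 CPM and the lowest WT library 807 CPM. Its log2 differences were 0.01 (adjusted p 0.971), -0.31 (0.265), -0.53 and -0.27 (0.246), and 0.05, -0.31, -0.50 and -0.30 without that mouse. Cd28 did not pass the test at 0 h (log2 difference -0.36, adjusted p 0.113), 6 h (-0.36, 0.0682) or 24 h (-0.39, 0.129), although the genotypes did not overlap at 0 h (456 CPM in the lowest WT library, 454 CPM in the highest Aim2-/- library) and 6 h (285 and 260.0 CPM). Without the mouse labelled WT 1 these Cd28 differences were -0.27, -0.30 and -0.40. Zap70 libraries were apart at 0 h, with a log2 difference of 0.19 (adjusted p 0.365), at 6 h with -0.24 (0.172) and at 24 h with -0.11 (0.656). Cd3d was apart at 6 h with 0.26 (adjusted p 0.0562) and Lat at 24 h with 0.11 (0.743). The share of all tested genes whose libraries lay apart between the genotypes was not counted. Without the mouse labelled WT 1 Zap70 stood at 0.19, -0.26 and -0.12, Cd3d at 0.26 and Lat at 0.13 in these comparisons. The log2 differences of Cd247 at 0, 3, 6 and 24 h were -0.22, -0.31, -0.06 and -0.01, and -0.31, -0.38, -0.14 and -0.07 without it. Cd3e differed least, with log2 differences between 0.00 and 0.05 at the 4 times and 95% intervals from -0.14 to 0.19.

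The calls at 6 h were lost without some single mice, which leaves fewer mice in a group, while the estimates kept their sign. That of Cd3g was lost without mouse WT 3 (0.40, adjusted p 0.0811), WT 4 (0.35, 0.087) or Aim2-/- 4 (0.43, 0.0562). That of Lcp2 was lost without mouse WT 3 (-0.59, adjusted p 0.0633), WT 4 (-0.58, 0.064), Aim2-/- 1 (-0.43, 0.0679) or Aim2-/- 4 (-0.56, 0.0568). Without mouse Aim2-/- 2, in contrast, more genes were called: Cd28 at 0 h (-0.42, adjusted p 0.0425), Cd3g (0.30, 0.0489) and Lcp2 (-0.41, 0.0486) at 3 h, Cd28 (-0.45, 0.02) at 6 h beside the 2 others, and Cd3g (0.43, 0.00455), Cd28 (-0.56, 0.00919) and Lcp2 (-0.43, 0.0233) at 24 h. At 6 h markers of other cells stood higher in the Aim2-/- libraries, with myeloid markers at 104 to 256 against 55.0 to 81.5 CPM, mast cell and basophil markers at 65.5 to 132 against 7.64 to 14.4 CPM, B cell markers at 11.1 to 36.5 against 3.51 to 6.65 CPM and platelet markers at 24.4 to 53.3 against 11.6 to 14.6 CPM. Mouse Aim2-/- 2 had the lowest of the 3 Aim2-/- values for each of these 4 lists. NK cell markers were apart too, at 67.3 to 85.9 against 39.9 to 54.3 CPM, with mouse Aim2-/- 2 the highest. Erythroid markers overlapped, at 21.6 to 486 against 7.60 to 64.1 CPM. Gamma delta T cell markers overlapped as well, at 49.8 to 57.1 against 37.7 to 59.4 CPM. Of the 6 myeloid markers 1 was called at 6 h, of the 4 mast cell and basophil markers 4, of the 4 B cell markers 2 and of the 4 platelet markers 3, all higher in Aim2-/- cells, and none of the 4 CD4 T cell markers was called. None of the 4 NK cell, 5 erythroid, 4 gamma delta T cell and 2 CD8 T cell markers was called either. When per-library scores of the B cell, myeloid and erythroid lists were added to the fit, Lcp2 was no longer called at 6 h (-0.39, adjusted p 0.0529) and Cd3g still was (0.31, 0.0224). That fit called 8.05% of all genes at 6 h, against 15.8% in the main fit. The myeloid and B cell sums did not overlap between the genotypes, so it cannot tell other cells and genotype apart. In that fit Cd3g differed by -0.04, 0.12 and 0.10 at 0, 3 and 24 h, so its sign turned at 0 h, and Cd28 by -0.16 and Lcp2 by -0.06 at 24 h. Lcp2 is also used by mast cells, platelets and myeloid cells, and the part of such cells in its value was not tested.

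**Figure D4:**
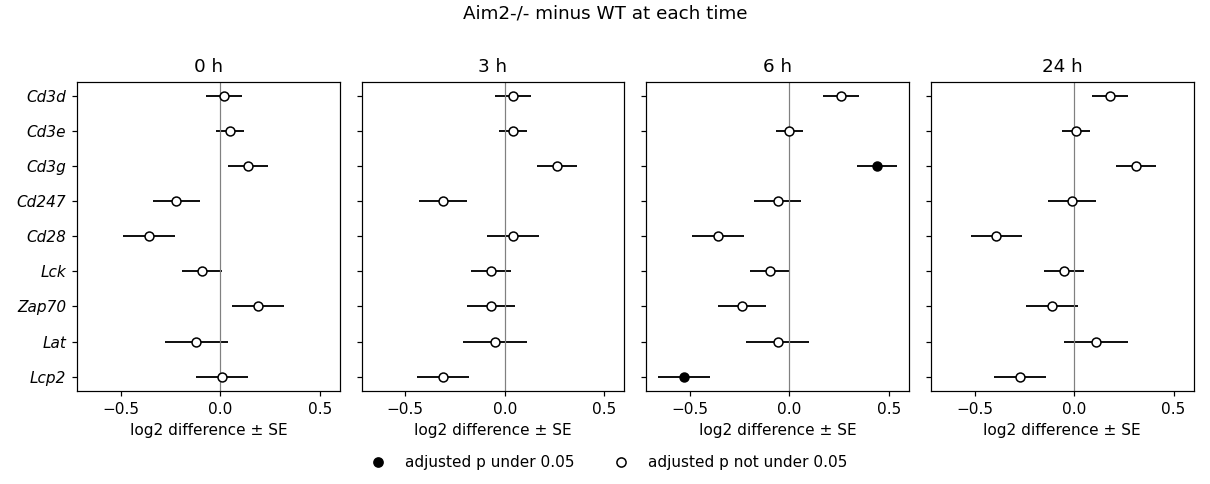
Log2 difference Aim2-/- minus WT of each of the 9 genes (rows) at 0, 3, 6 and 24 h, with bars of 1 SE, filled where the adjusted p was under 0.05. Cd3g at 6 h (0.44) and Lcp2 at 6 h (-0.53) are the filled points, Cd3g lies right of 0 at all 4 times (at 0 h its sign turns with marker scores in the fit), and Cd3e stays between 0.00 and 0.05.

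A test of the responses themselves used the genotype by time interaction, the Aim2-/- response less the WT response. None of the 9 was called at 3, 6 or 24 h, where 0%, 0.0261% and 0% of all genes were. At an unadjusted p under 0.05 there were 0, 3 and 0 of the 9, beside 653, 2019 and 1825 of the 15325 genes tested. DESeq2 and limma-voom called none of the 9. Of all genes, DESeq2 called 0, 305 and 186 at 3, 6 and 24 h, and limma-voom 0, 2 and 2. The 3 with an unadjusted p under 0.05 at 6 h in the main fit were Lcp2, with a smaller rise in Aim2-/- cells (-0.54, SE 0.18, adjusted p 0.207, 95% interval -0.90 to -0.18), Zap70, with a smaller rise too (-0.43, SE 0.18, adjusted p 0.287), and Cd3g (0.30, SE 0.14, adjusted p 0.354). With each mouse as a block, Lcp2 was called (-0.55, SE 0.14, adjusted p 0.0334), and so were 717 of the 15325 genes tested. Within mice, the log2 rise of Lcp2 from 0 to 6 h was 1.47, 1.57 and 1.38 in WT mice 1, 3 and 4 and 0.67, 1.07 and 1.02 in Aim2-/- mice 1, 2 and 4, without overlap. That of Zap70 was 0.95, 1.14 and 0.84 in the WT mice, all above the 0.24, 0.68 and 0.70 of the Aim2-/- mice. Cd3g was apart in the other direction, with 0.06, -0.06 and -0.16 in WT mice and 0.23, 0.25 and 0.26 in Aim2-/- mice, and so was Cd3d, with -0.21, -0.38 and -0.41 against -0.04, -0.08 and -0.17. How many of all tested genes had mice apart in this way was not counted, so these separations are a description only. With the 4 libraries of each mouse summed, so that a mouse counts once, edgeR called none of the 9 (0.0117% of 17163 genes were called). At an unadjusted p under 0.05 there were 3 of the 9, beside 23.3% of all genes. They were Cd3g (0.31), Cd28 (-0.25) and Lcp2 (-0.31), with 0.34, -0.20 and -0.30 without the mouse labelled WT 1. DESeq2 called Cd3g (0.30, adjusted p 0.01), Cd28 (-0.26, 0.0478) and Lcp2 (-0.32, 0.0246) on these sums, and so did edgeR without mouse Aim2-/- 2 (0.34, -0.34 and -0.43, adjusted p 0.0312, 0.0345 and 0.0267). Of all genes, these fits called 11.1% and 16.7%.

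The other genes of the pathway were described through 52 genes in 4 lists, which held 12 surface receptors and co-receptors, 11 kinases and other enzymes, 13 adaptors and scaffolds and 16 negative regulators, all of them tested. Most were lower after a day of stimulation. In WT cells 12 rose and 18 fell at 3 h (16.2% and 16.4% of all genes), 15 rose and 26 fell at 6 h (26.4% and 24.8%), and 8 rose and 34 fell at 24 h (36.6% and 34.8%). In Aim2-/- cells the counts were 10 and 18 (16.1% and 14.6% of all genes), 13 and 27 (28.5% and 22.7%), and 6 and 36 (36.8% and 33.5%). Their median log2 change at 24 h was -0.68 in WT and -0.78 in Aim2-/- cells, beside -0.01 and 0.03 over all genes. By list at 24 h in WT, 8 of 12 surface receptors fell and 2 rose, 8 of 11 kinases and enzymes fell and 1 rose, 10 of 13 adaptors fell and 2 rose, and 8 of 16 negative regulators fell and 3 rose.

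Some of these genes moved further than the 9. Grap2 (the adaptor Gads, which links Lat to Lcp2) had a mean of 1051 CPM at 0 h and 113 CPM at 24 h in WT (-3.22 on the log2 scale, adjusted p 2.4e-11), and of 779 and 102 CPM in Aim2-/- cells (-2.93, adjusted p 1.1e-10), while its partner Lcp2 stayed above its resting level. Ptpn22, a phosphatase that acts on Lck and Zap70, had 857 and 105 CPM at these times in WT (-3.02) and 941 and 129 CPM in Aim2-/- cells (-2.87), and the Tec family kinase Txk changed by -2.94 and -2.49. Ptpn6, the phosphatase SHP-1, rose in WT from a mean of 74.7 to 468 CPM (2.65, adjusted p 7.0e-14) and in Aim2-/- cells from 86.3 to 379 CPM (2.13, adjusted p 1.3e-12). Csk, the kinase that inhibits Lck, rose by 0.85 and 0.74, and the adaptor Grap by 0.76 and 0.72. At 3 h Grap2 (-1.72 and -1.67), Sit1 (-1.73 and -1.62) and Ubash3a (-1.54 and -1.51) had already fallen in WT and Aim2-/- cells, and Ubash3b (1.44 and 0.84), Ptpn6 (1.26 and 0.87) and Trat1 (1.08 and 1.02), which binds the receptor complex, had risen. By the mean change of both genotypes at 6 h, the genes that fell most were Grap2 (-2.41 and -2.47), Pag1 (-1.78 and -1.96), which anchors Csk, and Ubash3a (-1.75 and -1.77), and those that rose most were Ubash3b (2.04 and 0.89), Ptpn6 (1.53 and 1.06) and Malt1 (1.43 and 0.83), a protease of the NF-kB branch.

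Between genotypes 3 of the 52 were higher and 2 lower in Aim2-/- cells at 0 h (5.23% of all genes were called), 4 higher and 8 lower at 6 h (15.8%), and edgeR called none at 3 and 24 h, where 11 and 16 of them and 15.3% and 20.5% of all genes had an unadjusted p under 0.05. DESeq2 called none at 3 h and 3 at 24 h, beside 2.32% and 5.95% of all genes. When the mouse labelled WT 1 was left out, 4 were higher and 1 lower at 0 h, with 0 and 1 at 3 h, 5 and 6 at 6 h, and 1 and 0 at 24 h. They were 0 at 0 h without any 1 of WT 3, WT 4, Aim2-/- 1 and Aim2-/- 4, and 0 at 6 h without WT 4. Of all genes, these fits called 0.191%, 0.237%, 1.04% and 0.802% at 0 h and 0.607% at 6 h. Without mouse Aim2-/- 2 there were 2 higher and 4 lower at 0 h, and 1 and 3 at 3 h. At 6 h there were then 4 and 17, and at 24 h 2 and 13. Of all genes, 13.7%, 7.31%, 25.7% and 17.3% were called without that mouse at the 4 times. With all mice in the main fit, the genes called at 0 h were Ubash3b (62.3 CPM in WT, 112 CPM in Aim2-/- cells, adjusted p 0.0492), Sla (417 and 675 CPM, 0.0228) and Dok1 (34.8 and 46.0 CPM, 0.032), which were higher, and Dgka (1557 and 1117 CPM, 0.0149) and Cbl (295 and 212 CPM, 0.0408), which were lower. All 5 are negative regulators, and without the mouse labelled WT 1 all but Cbl (-0.42, adjusted p 0.0827) were still called. At 6 h the largest differences were those of Sit1 (0.84, adjusted p 0.00484), Dok1 (0.56, 0.00499) and Lax1 (0.49, 0.0394), higher in Aim2-/- cells, and of Pag1 (-0.72, adjusted p 0.02), Rasgrp1 (-0.61, 0.0352) and Ptprc (-0.59, 0.00845), lower, and these 6 were still called without that mouse. Rasgrp1 activates Ras downstream of Lat, and Ptprc encodes CD45, the phosphatase that keeps Lck ready to act.

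**Figure D5:**
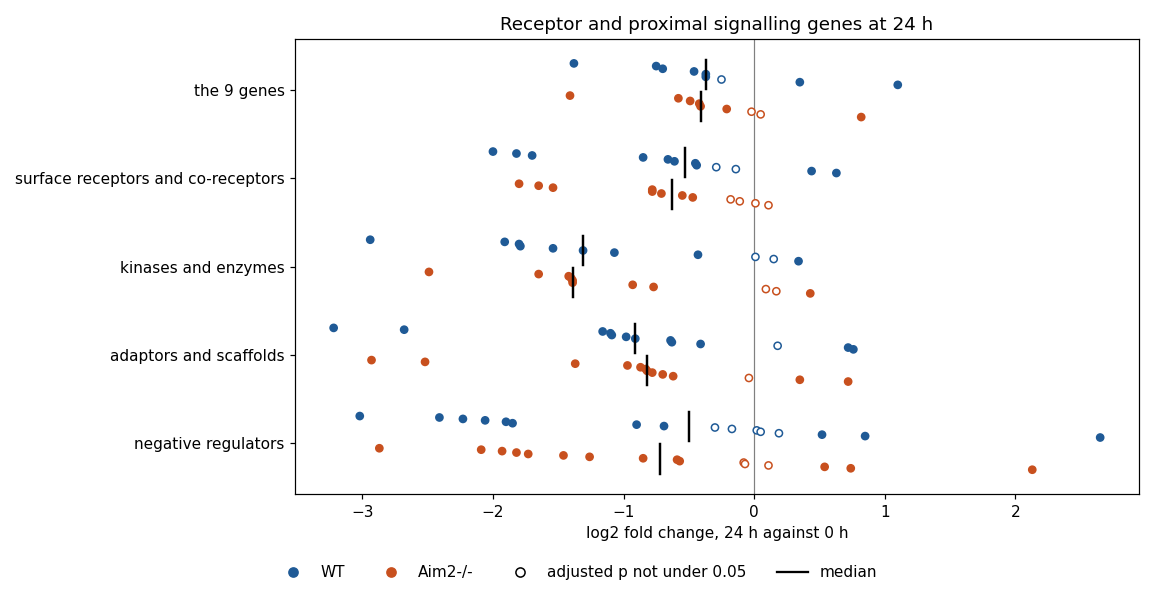
Log2 fold change at 24 h against 0 h (horizontal axis) of the 9 genes and of the 52 other pathway genes by list (rows), blue for WT and orange for Aim2-/-, filled where the adjusted p was under 0.05, with black bars at the medians. The medians of all lists lie left of 0, at -1.31 in WT and -1.39 in Aim2-/- cells for kinases and enzymes, and Ptpn6 stands alone on the right at 2.65 and 2.13.

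Across the 24 libraries, which share mice and times and so are not independent, log2 CPM of Cd28 and Lck varied most alike among the 36 pairs of the 9 genes (Pearson r 0.841), followed by Cd3e and Cd3g (r 0.807) and Zap70 and Lcp2 (r 0.749). The neighbours Cd3d and Cd3g had r 0.597. The lowest value was that of Cd3d and Lcp2 (r -0.783). Among other genes with a mean of at least 10 CPM, the course of Lcp2 was most like that of Irf4 (r 0.966), which went from 251 CPM at 0 h to 1240.2 CPM at 3 h and 1537 CPM at 6 h in WT, and of Slc7a1 (r 0.957). Zap70 was closest to Sptlc1 (r 0.954) and Spry1 (r 0.950), Cd247 to Fam102a (r 0.970) and Sh3bp5 (r 0.959), and Cd28 to Msl2 (r 0.969) and Ppm1a (r 0.965). Cd3e was closest to Bahd1 (r 0.952) and Dcaf5 (r 0.927), Cd3g to S100a11 (r 0.918) and Wls (r 0.914), Cd3d to Fxyd5 (r 0.891) and Tmed4 (r 0.882), and Lck to Chd7 (r 0.902) and Rab3gap1 (r 0.892). Lat had the loosest match, with Dusp2 (r 0.740) and Map2k7 (r 0.730).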

How the data were processed

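Messenger RNA of splenic CD4+ T cells was sequenced from stranded libraries, per the labels. The deposited values are read counts for each gene that the authors obtained with STAR on GRCm38, not normalized. Whether counting used the strand is not given in the sources used here, and neither is the STAR version. Since the study's methods name limma-voom for counts made in another way, voom served as an alternative.

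Counts were fitted with edgeR 4.0.16 in R 4.3.3, with its two-sided quasi-likelihood F test. The model held a mean for each of 8 groups over 24 libraries, with TMM factors and a filterByExpr filter (minimum count 10), which kept 15325 genes. The Benjamini-Hochberg adjustment ran over all genes of a comparison. P-values rest on the spread within groups of 3 mice, pooled over all 8 groups, with no term for the mouse. Libraries of a mouse at different times thus entered as independent, which they are not. Between genotypes, the compared libraries alone called 2.36%, 0.0147%, 7.17% and 0% of genes at 0, 3, 6 and 24 h. The main fit called 5.23%, 0.294%, 15.8% and 0.666%. SE and 95% intervals were derived from the F statistics. The fit was tested on simulated data. Log2 CPM used a prior count of 2. Intervals and floors of counting error play no part, since each of the 9 genes had at least 2465 counts per library.

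Libraries of a mouse were paired per the labels. This was checked on deviations from group means: 36 pairs of libraries from a mouse had r of 0.139 to 0.567, and 72 pairs of different mice and times within a genotype -0.432 to 0.0742. The 32 pairs of different genotypes with the same mouse number had r of -0.165 to 0.3, which overlaps the range within a mouse. Whether a shared number marks a shared batch was not tested. None of the 24 library pairs within a group was a duplicate (chi-square per degree of freedom 7.12 or more). Pairs across groups were not compared in this way.

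Alternatives were RLE factors, library totals, DESeq2 1.42.0, limma-voom (limma 3.58.1), no filter, a minimum mean of 1 CPM, the compared libraries alone, mouse or mouse number as a block, marker scores and each mouse left out. Symbols and positions came from GENCODE M21, which matched 54409 identifiers. Promoters came from RefSeq.

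The 9 genes and all lists were chosen with earlier results of these data known. Named pathway genes are the 3 largest rises and 3 largest falls called in both genotypes at each time, and up to 3 called in each direction between genotypes. For likeness, the 2 genes with the highest r are named, clone names left out.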

Additional observations from a re-analysis of the deposited data

Results flagged for a closer look

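The response of Lcp2 at 6 h differed between the genotypes when each mouse was fitted as a block, with a rise smaller by 0.55 in Aim2-/- cells (log2 difference -0.55, SE 0.14, adjusted p 0.0334). The fit without the block gave -0.54 (SE 0.18, adjusted p 0.207). Of the 15325 genes tested, 717 were called at 6 h with the block and 4 without it. The rise was larger in each of the 3 WT mice than in each of the 3 Aim2-/- mice, and the mouse labelled WT 1, whose Aim2 level goes against its label, was among them. Without that mouse and without the block the difference was -0.55 (SE 0.22, adjusted p 0.371).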

How the results depend on the processing

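Of 162 values of the 9 genes, 74 were called in the main or an alternative fit, and none of these changed sign in any alternative. The other 88 were called in no fit, and 41 of them changed sign in at least 1 alternative. The rises of Lcp2, the falls of Cd28 and the 24 h falls of Cd3e, Cd3g, Cd247 and Lck against 0 h held in every alternative. With 3 mice per group the SE of a gene's change against 0 h was 0.07 to 0.16 on the log2 scale, which limits what small changes can pass, and depth did not limit these abundant genes. Scaling by library totals shifted the median gene by 0.11 (WT, 3 h) and 0.12 (Aim2-/-, 3 and 6 h).

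The counts that moved were these, and the cause was not tested. With each mouse as a replicate block, 5 of the 9 were called at 3 h in Aim2-/- cells, 3 between 3 and 6 h in Aim2-/- cells and 1 in the interaction at 6 h. Of the 15325 genes tested, these fits called 6307, 5438 and 717, against 4698, 3571 and 4 without the block. The block ended no call of the 9. Mouse numbers are shared by different mice of the genotypes, and with the mouse number as a replicate block 2, 3, 4 and 3 were called between genotypes at 0, 3, 6 and 24 h, where 23.6%, 15.2%, 36.0% and 21.1% of all genes were. On mouse sums that block called none of the 9. DESeq2 gave 4 at 6 h, 1 at 24 h and 3 on mouse sums between genotypes, and 2 between 3 and 6 h in Aim2-/- cells, where RLE factors and the minimum mean of 1 CPM gave 2 as well. The compared libraries alone gave 1 between 3 and 6 h in WT and 0 in Aim2-/- cells. Without the filter on low counts 3 were called at 6 h in Aim2-/- cells and 1 at 24 h between genotypes. Marker scores left 1 at 6 h between genotypes, where 8.05% of all genes were called. Leaving out each mouse in turn gave 2 to 5 at 3 h in WT, 3 to 3 at 6 h in Aim2-/- cells, 0 to 1 between 3 and 6 h in either genotype, and between genotypes 0 to 1 at 0 h, 0 to 2 at 3 h, 0 to 3 at 6 h, 0 to 3 at 24 h and 0 to 3 on mouse sums. The calls over all genes moved in these fits as well. They were 2936 to 3514 at 3 h in WT and 6310 to 7072 at 6 h in Aim2-/- cells, against 4992 and 7840 with all mice.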
